A study of Mus musculus with 32 samples.

Results

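Genes of the extracellular matrix were followed in epididymal fat (eWAT) and liver of mice exposed to corticosterone (cort), the main glucocorticoid of rodents, on a normal-protein or a high-protein diet. The genes were 47 of the 47643 gene IDs in the count table, a hand-written list of collagens, matrix glycoproteins and proteoglycans, collagen-processing enzymes, matrix proteases with their inhibitors, and Tgfb1, and all were found by symbol. The mice were male C57BL/6, 10 weeks of age, and drank vehicle (ethanol, Veh) or cort in their water for 7 days. They ate the NPD (20% of kcal from protein) or the HPD (60% of kcal, from whey, with corn starch reduced and fat matched). There were thus 4 groups, and each had 4 eWAT and 4 liver libraries. Liver Veh HPD replicate 4, which stood apart from the other livers, was left out of the liver fits, so that group had 3 livers, and counts with it included are given beside the liver results.

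The extracellular matrix is the protein scaffold that cells secrete around themselves. Fibrillar collagens give it tensile strength, collagen VI and the microfibrils link cells to it, basement membranes sheathe adipocytes and vessels, and enzymes inside and outside the cell trim, cross-link and degrade the fibres. In fat most of it is made by fibroblasts and adipocyte progenitors, and in liver by hepatic stellate and portal cells. Glucocorticoids are long known to restrain collagen synthesis in connective tissue, and transforming growth factor beta is the classical inducer of matrix genes.

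Total counts ran from 9794683 to 18057936 in eWAT and from 8933307 to 17447524 in liver. Levels are in CPM, counts scaled to a common library total after each total was multiplied by a factor fitted to that library (TMM). These factors ran from 0.928 to 1.06 in eWAT and from 0.754 to 1.11 in the liver fit. Percents of counts use the library totals without factors, so they are on another scale than CPM. The libraries read transcripts from the 3′ end, so levels are compared for 1 gene between samples and not between genes. A gene was called when its Benjamini-Hochberg adjusted p over all genes tested was under 0.05 in edgeR's quasi-likelihood test, and only called genes are said to rise or fall. All 47 matrix genes passed the low-count filter among 15187 genes in eWAT. In liver 43 passed among 12391, and Lama2, Fbln2, Mfap5 and Timp1 did not. The tissues matched their labels: adipocyte markers summed to 26806 to 34874 CPM in eWAT and to 40.6 to 96.4 CPM in liver, and hepatocyte markers summed to at least 53902 CPM in the livers used.

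Several libraries stood apart. The epididymis marker sum of eWAT Cort HPD replicate 4 was 9233 CPM, against at most 10.8 CPM in any other eWAT library. In eWAT Veh HPD replicate 4 the matrix genes held 1.02% of counts, against 1.52% to 1.71% in the other libraries of its group. Its smooth muscle and pericyte markers summed to 217 CPM, against 441 to 563 CPM. In eWAT Veh NPD replicate 3 the matrix genes held 2.04% of counts, against 1.52% to 1.88% in the rest of its group. Its endothelial markers summed to 777 CPM, against 399.9 to 436 CPM. Below, the eWAT libraries said to stand apart are Veh HPD replicate 4 and Cort HPD replicate 4. The liver library left out had the highest liver share of counts in matrix genes, 0.191%, with Col1a1 at 34.6 CPM and a hepatocyte marker sum of 32319 CPM.

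To show the DNA upstream of these genes, RefSeq promoter windows of 300 bases (250 before and 50 after the transcript start, build GRCm38.p6) were matched for 32 of the 47 genes, in 36 windows. The motifs searched were the TATA box (TATAAA), which places transcription starts at many tissue-restricted genes, the GC box (GGGCGG), and the glucocorticoid receptor half-site (TGTTCT), each searched on both strands. GGGCGG stood in 26 of the 36 windows, in 25 genes, and in 35.7% of all 32851 windows. TATAAA stood in windows of 5 genes (Col3a1, Mmp3, P4ha1, Plod1 and Postn) and in 13.6% of all windows. TGTTCT stood in windows of 4 genes (Bgn, Fbln1, Lama2 and Sparc) and in 19.0% of all windows, and the full palindrome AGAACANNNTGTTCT in none of the 36 and in 0.00913% of all. The CCAAT box was in windows of 11 genes and in 37.4% of all. The 250 bases before the start are printed for a fibrillar collagen and a matricellular gene that fell in eWAT and hold the letters TATAAA. They are also printed for a proteoglycan whose window holds both GC boxes and a half-site. Capitals mark TATAAA in Col3a1 (plus strand, chr1:45311288-45311537) and in Postn (plus strand, chr3:54360857-54361106), 117 and 26 bases before the start. In Bgn (plus strand, chrX:73483351-73483600) they mark the half-site 241 bases before the start and GC boxes on the opposite strand at 34, 10 and 6 bases.
Col3a1: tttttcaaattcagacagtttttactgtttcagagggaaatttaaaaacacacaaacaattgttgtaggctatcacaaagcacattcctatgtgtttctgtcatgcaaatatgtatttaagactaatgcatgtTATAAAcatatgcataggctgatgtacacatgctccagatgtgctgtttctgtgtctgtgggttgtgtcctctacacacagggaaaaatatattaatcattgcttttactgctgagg
Postn: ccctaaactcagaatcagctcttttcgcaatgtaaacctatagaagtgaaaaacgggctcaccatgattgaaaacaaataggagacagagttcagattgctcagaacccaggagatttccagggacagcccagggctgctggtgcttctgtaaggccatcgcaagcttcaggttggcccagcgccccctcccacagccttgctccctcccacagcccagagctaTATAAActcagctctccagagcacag
Bgn: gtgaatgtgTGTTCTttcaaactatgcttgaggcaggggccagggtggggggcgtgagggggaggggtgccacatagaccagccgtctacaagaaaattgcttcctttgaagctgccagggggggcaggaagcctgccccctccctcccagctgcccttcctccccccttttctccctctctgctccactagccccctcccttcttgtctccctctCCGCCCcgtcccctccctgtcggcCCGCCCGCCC
A motif match describes these letters and is not a measured binding site.

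The first question was how cort changed the matrix genes of eWAT. On the NPD 21 of the 47 genes fell and 3 rose (Lox, Col4a2 and Col18a1), where 3.93% of all genes tested fell and 4.05% rose. The median log2 fold change of the matrix genes was -0.75, that of all genes -0.02, and 41 of the 47 were negative. In a tissue sample fewer cells of a type and less RNA per cell cannot be told apart. On the HPD 17 genes fell and 5 rose (the same 3 with Col4a1 and P4ha2), where 2.63% of all genes tested fell and 3.46% rose, and the median was -0.56. Without both eWAT libraries that stood apart, a setting chosen after seeing the data, 26 fell and 4 rose on the NPD. On the HPD 18 fell and 4 rose. Both are HPD libraries, so on the NPD this setting changed the filter, scaling and shared spread but none of the libraries compared. The 24 calls on the NPD became 19, with 16 fallen and 3 risen, when Veh NPD replicate 3 was left out. The 22 calls on the HPD became 10 without Veh HPD replicate 1 and 13 without its replicate 2. They became 14 and 13 when Cort HPD replicates 1 and 3 were left out in turn.

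**Figure D1:**
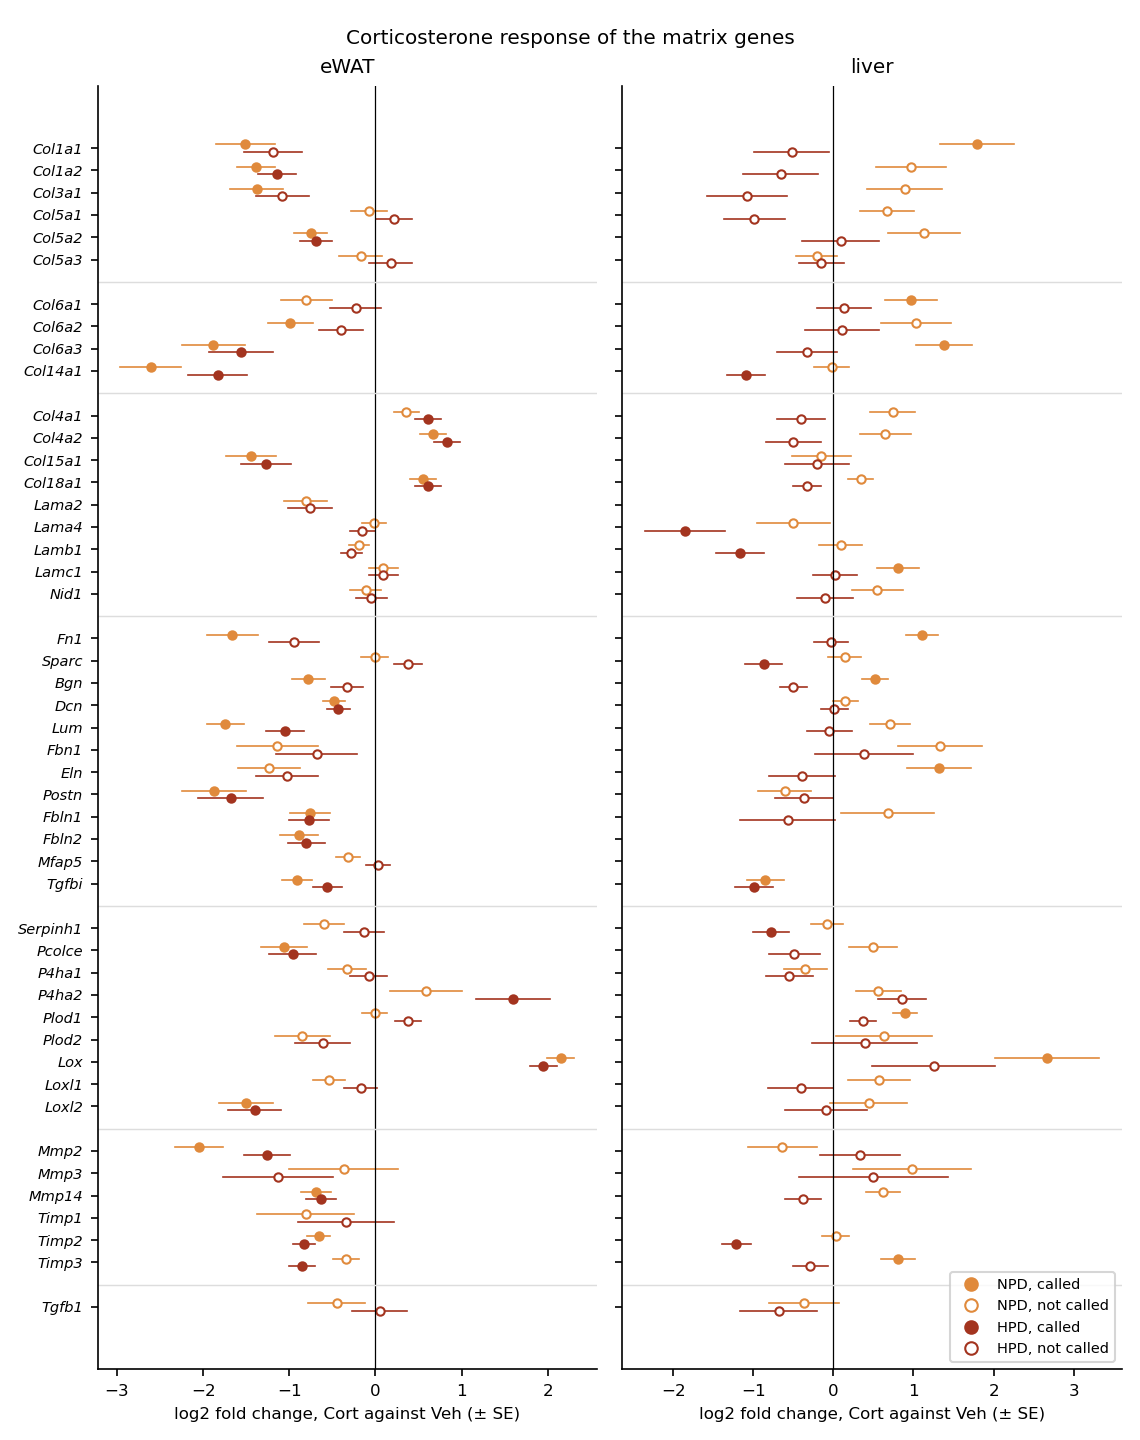
Log2 fold change of each matrix gene, Cort against Veh, with its standard error, in eWAT (left) and liver (right), on the NPD (orange) and the HPD (red); filled points were called and open points were not. In eWAT most points lie left of 0 on both diets while Lox lies near 2, and in liver the NPD points lie mostly to the right of 0 and the HPD points mostly to the left.

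Among the 6 fibrillar collagens, which form the load-bearing fibres, 4 fell on the NPD and 2 on the HPD. Col1a2, the second chain of type I collagen (ENSMUSG00000029661, chr6:4504814-4541544, GRCm38), was at 674, 587, 979 and 803 CPM in Veh NPD and at 285, 264, 256 and 355 CPM in Cort NPD. On the HPD Col1a2 was at 801, 775, 803 and 363 CPM in Veh and at 283, 395, 263 and 303 CPM in Cort. The NPD groups did not overlap, and on the HPD only the low Veh replicate 4 reached into the Cort range. The log2 fold change of Col1a2 was -1.39 ± 0.22 (SE, edgeR adjusted p = 5.5e-04) on the NPD and -1.14 ± 0.22 (edgeR adjusted p = 0.0036) on the HPD.

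Col3a1, the chain of type III collagen that accompanies type I in soft tissue (ENSMUSG00000026043, chr1:45311538-45349706), was at 817, 915, 1523 and 1025 CPM in Veh NPD and at 426, 332, 358 and 526 CPM in Cort NPD. On the HPD it was at 914, 797, 999 and 311 CPM in Veh and at 325, 454, 332 and 313 CPM in Cort. All Cort NPD libraries lay below all Veh NPD libraries, whereas on the HPD the lowest of the 8 was the Veh library that stood apart. Col3a1 fell by 1.38 on the log2 scale (SE 0.31, edgeR adjusted p = 0.014) on the NPD, and its value on the HPD was -1.08 (SE 0.31, edgeR adjusted p = 0.058).

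Col1a1, the other type I chain (ENSMUSG00000001506, chr11:94936224-94953042), was at 283, 288, 545 and 361 CPM in Veh NPD and at 132, 120.0, 96.4 and 169 CPM in Cort NPD. In HPD mice it was at 324, 313, 397 and 126 CPM in Veh and at 111, 182, 93.9 and 123 CPM in Cort. The pattern was that of Col3a1, with groups apart on the NPD and overlapping through Veh replicate 4 on the HPD. Its log2 fold change was -1.51 ± 0.34 (SE, edgeR adjusted p = 0.015) on the NPD and -1.19 ± 0.34 (edgeR adjusted p = 0.059) on the HPD. Col5a2, a chain of the type V collagen that nucleates type I fibrils, fell on both diets, by 0.75 and by 0.69. The other type V chains did not follow it, with Col5a1 at -0.07 and 0.22 and Col5a3 at -0.17 and 0.18, and neither was called.

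**Figure D2:**
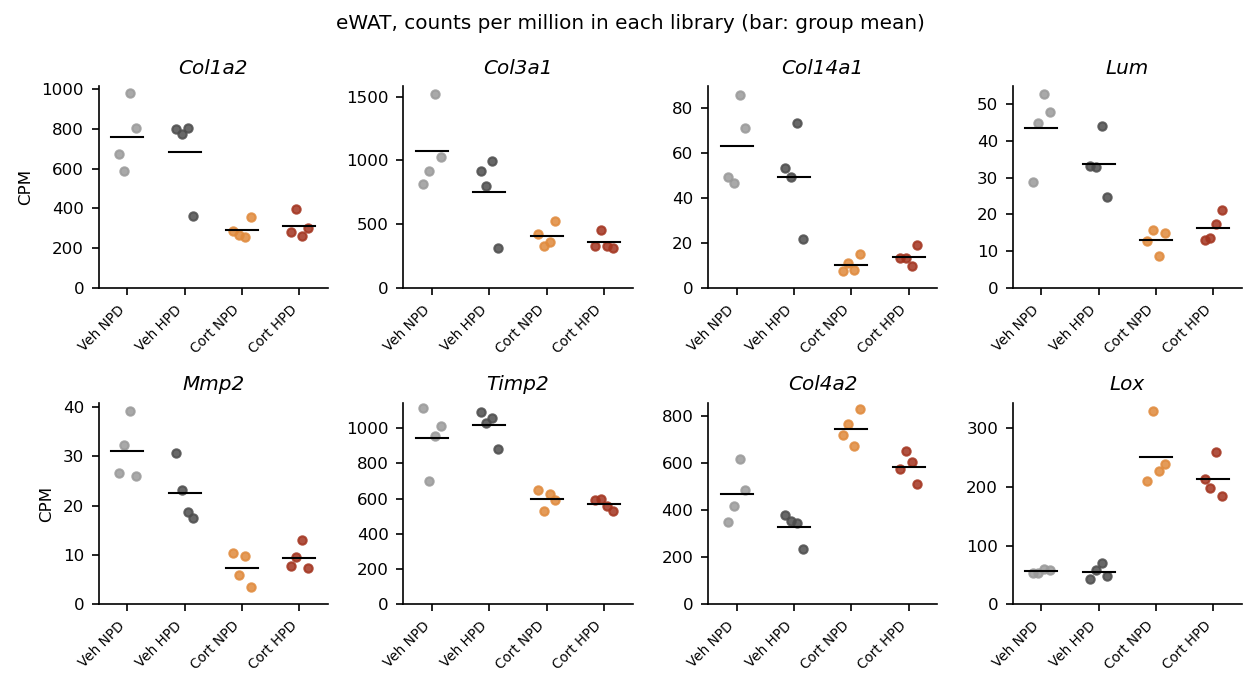
CPM in each eWAT library of 8 matrix genes, 4 libraries per group, with a bar at the group mean. The 6 genes other than Col4a2 and Lox are lower in Cort than in Veh on the NPD with no overlap, the point far below its group in Col1a2 and Col3a1 is Veh HPD replicate 4, and Col4a2 and Lox are higher in Cort on both diets.

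Of the 4 collagens of microfibrils and fibril surfaces, 3 fell on the NPD and 2 on the HPD. Col14a1, a fibril-associated collagen (ENSMUSG00000022371, chr15:55307750-55520803), was at 49.3, 46.8, 85.8 and 71.1 CPM in Veh NPD and at 7.40, 11.1, 8.12 and 14.9 CPM in Cort NPD. Its HPD levels were 53.1, 49.1, 73.4 and 21.7 CPM in Veh and 13.5, 13.1, 9.77 and 19.2 CPM in Cort. No Cort library reached a Veh library of the same diet. Its log2 fold change of -2.61 ± 0.35 (SE, edgeR adjusted p = 2.7e-04) on the NPD was the lowest of the 47 genes, and on the HPD the value was -1.83 ± 0.34 (edgeR adjusted p = 0.0046), also the lowest.

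Col6a3, the large chain of collagen VI (ENSMUSG00000048126, chr1:90765923-90843971), was at 116, 140.2, 236 and 198 CPM in Veh NPD and at 54.1, 45.4, 29.2 and 58.9 CPM in Cort NPD. The HPD libraries held it at 163, 111, 151 and 45.3 CPM in Veh and at 42.0, 48.8, 34.2 and 34.2 CPM in Cort, where Veh replicate 4 again met the Cort range. Col6a3 fell by 1.88 (edgeR adjusted p = 0.0064) and by 1.56 (edgeR adjusted p = 0.023) on the log2 scale. Col6a2, its partner chain, was at 177, 208, 317 and 266 CPM in Veh NPD and at 136, 129, 83.2 and 141 CPM in Cort NPD, groups that did not overlap. It fell on the NPD by 0.99 (edgeR adjusted p = 0.029). On the HPD Col6a2 was at 151, 146, 186 and 68.6 CPM in Veh and at 110.0, 121, 89.9 and 99.0 CPM in Cort, a log2 fold change of -0.40 (edgeR adjusted p = 0.46). Col6a1 was not called on either diet, at -0.80 and -0.23.

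The 9 basement membrane genes did not share one direction. Chains of the network-forming collagen IV and of collagen XVIII rose and Col15a1 fell, while the laminin and nidogen genes were not called. Col4a2 (ENSMUSG00000031503, chr8:11312805-11449287) was at 350.1, 419, 616 and 484 CPM in Veh NPD and at 717, 764, 673 and 827 CPM in Cort NPD. On the HPD it was at 378, 353, 344 and 237 CPM in Veh and at 573, 651, 602 and 511 CPM in Cort. Every Cort library lay above every Veh library on both diets. Col4a2 rose by 0.67 ± 0.15 (SE, edgeR adjusted p = 0.005) and by 0.83 ± 0.15 (edgeR adjusted p = 8.8e-04) on the log2 scale.

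Col4a1, its partner chain, was at 694, 802, 1054 and 898 CPM in Veh NPD and at 1102, 1097, 1025 and 1192 CPM in Cort NPD, groups that met at their edges. In HPD mice it was at 699.7, 650.0, 709 and 405 CPM in Veh and at 989, 1049, 941 and 789 CPM in Cort, with no overlap. It rose on the HPD by 0.61 (edgeR adjusted p = 0.013), and its value on the NPD was 0.36 (edgeR adjusted p = 0.17). The genes lie head to head and share 22 exonic bases on opposite strands. Col18a1, a vascular basement membrane collagen, was at 55.7, 61.7, 84.5 and 92.5 CPM in Veh NPD and at 110.0, 103, 106 and 113 CPM in Cort NPD. On the HPD Col18a1 was at 67.8, 82.3, 93.6 and 60.1 CPM in Veh and at 111, 115, 130.2 and 107 CPM in Cort. Again the groups did not overlap, and the gene rose by 0.55 (edgeR adjusted p = 0.02) and by 0.61 (edgeR adjusted p = 0.012).

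Col15a1, which anchors basement membranes to the fibres around them, was at 264, 278, 383 and 434 CPM in Veh NPD and at 144, 119.6, 82.2 and 155 CPM in Cort NPD. Its HPD levels were 258, 199.7, 281 and 153 CPM in Veh and 116, 125, 72.9 and 56.6 CPM in Cort. It was lower in every Cort library on both diets, by 1.44 (edgeR adjusted p = 0.0058) and by 1.27 (edgeR adjusted p = 0.016) on the log2 scale. The laminin genes Lama4, Lamb1 and Lamc1 and the linker Nid1 ranged from -0.28 to 0.09 over both diets, and Lama2 was at -0.81 (edgeR adjusted p = 0.051) and -0.76 (edgeR adjusted p = 0.081).

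Of the 12 glycoproteins, proteoglycans and elastic fibre genes, 8 fell on the NPD and 6 on the HPD, and none rose. Lum, which encodes lumican, a small proteoglycan that spaces collagen fibrils (ENSMUSG00000036446, chr10:97565128-97572703), was at 28.8, 45, 52.8 and 47.9 CPM in Veh NPD and at 12.7, 15.7, 8.68 and 15 CPM in Cort NPD. The HPD libraries held it at 33.3, 33.0, 44.1 and 24.7 CPM in Veh and at 13.0, 13.5, 17.3 and 21.2 CPM in Cort. The groups were apart on both diets, and Lum fell by 1.74 ± 0.22 (SE, edgeR adjusted p = 6.2e-06) and by 1.05 ± 0.22 (edgeR adjusted p = 0.0029). Bgn and Dcn, the related proteoglycans biglycan and decorin, fell on the NPD by 0.78 and by 0.48, and on the HPD Dcn fell by 0.43 while Bgn was at -0.33 (edgeR adjusted p = 0.37).

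Fn1, which encodes the adhesive glycoprotein fibronectin (ENSMUSG00000026193, chr1:71585520-71653200), was at 254, 279, 348 and 394 CPM in Veh NPD and at 97.3, 100.2, 87.6 and 118 CPM in Cort NPD. On the HPD it was at 253, 239.6, 382 and 102 CPM in Veh and at 158, 124, 109 and 118 CPM in Cort. On the NPD the groups were far apart and on the HPD they overlapped through Veh replicate 4. Fn1 fell by 1.66 (SE 0.30, edgeR adjusted p = 0.0029) on the NPD and was at -0.94 (SE 0.29, edgeR adjusted p = 0.08) on the HPD.

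Tgfbi, a matrix protein induced by transforming growth factor beta, was at 48.0, 51.0, 42.1 and 63.1 CPM in Veh NPD and at 19.8, 30.7, 26.2 and 32.4 CPM in Cort NPD. In HPD mice it was at 52.9, 50.8, 50.6 and 43.4 CPM in Veh and at 32.5, 27.8, 44.3 and 29.5 CPM in Cort, where 1 Cort library passed the lowest Veh library. It fell by 0.91 (edgeR adjusted p = 8.2e-04) and by 0.56 (edgeR adjusted p = 0.045), and 13 of 24 alternatives lost the HPD call. Postn, the matricellular gene whose TATA-box window is printed above, had log2 fold changes of -1.87 and -1.68, and both were called. The fibulins Fbln1 and Fbln2, which bind elastic fibres and basement membranes, fell on both diets by 0.76 to 0.89. Fbln1 on the NPD was at -0.36 and not called when Veh NPD replicate 1 was left out. Of 24 alternatives, Fbln1 lost its call under 6 on the NPD and 12 on the HPD, and Fbln2 under 3 and 9. Sparc, Mfap5, Fbn1 and Eln were not called on either diet, and the elastic fibre genes Fbn1 (-1.14 and -0.68) and Eln (-1.23 and -1.03) had standard errors of 0.36 to 0.47.

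Of the 9 genes for collagen processing and cross-linking, Lox stood out. Lox encodes lysyl oxidase, the secreted enzyme that starts the cross-linking of collagen and elastin. It was at 53.4, 53.5, 61.0 and 58.1 CPM in Veh NPD and at 210.3, 329, 226 and 239 CPM in Cort NPD. On the HPD Lox was at 43.2, 58.5, 70.9 and 48.8 CPM in Veh and at 214, 198, 259.7 and 184 CPM in Cort. The lowest Cort library was at 184 CPM and the highest Veh library at 70.9 CPM. Lox rose by 2.15 ± 0.16 (SE, edgeR adjusted p = 2.6e-10) and by 1.95 ± 0.16 (edgeR adjusted p = 2.8e-09) on the log2 scale, the highest values among the 47 genes on each diet.

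Loxl2, a relative of Lox, went the other way, from 34.0, 37.6, 61.9 and 49.7 CPM in Veh NPD to 16, 20.8, 9.46 and 18.4 CPM in Cort NPD. Its HPD levels were 42.1, 41.7, 63.6 and 21.5 CPM in Veh and 19.1, 20.1, 10.3 and 14.7 CPM in Cort. The groups of each diet did not overlap, and Loxl2 fell by 1.5 (edgeR adjusted p = 0.006) and by 1.40 (edgeR adjusted p = 0.012). Loxl1 was at -0.54 and -0.17 and was not called. The members of the lysyl oxidase family on the list thus had separate responses in the same libraries.

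Pcolce, which enhances procollagen C-proteinase, was at 53.1, 29.5, 64.3 and 44.0 CPM in Veh NPD and at 31.4, 17.9, 20.0 and 22.2 CPM in Cort NPD. The HPD libraries held it at 52.3, 43.9, 39.0 and 19.2 CPM in Veh and at 19.2, 15.3, 22.3 and 22.5 CPM in Cort. The groups overlapped on both diets, and the gene fell by 1.06 (edgeR adjusted p = 0.019) and by 0.96 (edgeR adjusted p = 0.042). It shares 112 exonic bases with Fbxo24 on the same strand. P4ha2, a subunit of the prolyl hydroxylase that stabilises the collagen helix, was at 10.8, 14.3, 21.3 and 17.4 CPM in Veh NPD and at 25.9, 29.4, 22.0 and 18.5 CPM in Cort NPD. On the HPD P4ha2 was at 16.5, 18.0, 17.2 and 12.8 CPM in Veh and at 36.2, 21.3, 28.1 and 109 CPM in Cort, where the highest value is the library with epididymis transcripts. It rose on the HPD by 1.60 (SE 0.43, edgeR adjusted p = 0.042), but 17 of 24 alternatives lost the call and its log2 fold change was 0.73 without both libraries that stood apart. Serpinh1, the collagen chaperone, the hydroxylase genes P4ha1, Plod1 and Plod2 and Loxl1 were not called in eWAT, with log2 fold changes from -0.85 to 0.38.

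Of the 6 proteases and inhibitors, 3 fell on the NPD and 4 on the HPD. Mmp2, a gelatinase (ENSMUSG00000031740, chr8:92827291-92853420), was at 26.6, 32.3, 39.1 and 25.9 CPM in Veh NPD and at 10.5, 6.03, 9.70 and 3.47 CPM in Cort NPD. On the HPD it was at 30.7, 23.1, 18.8 and 17.5 CPM in Veh and at 7.75, 9.58, 13.0 and 7.40 CPM in Cort. No groups of a diet overlapped, and Mmp2 fell by 2.05 ± 0.28 (SE, edgeR adjusted p = 1.9e-05) and by 1.26 ± 0.27 (edgeR adjusted p = 0.0046). Mmp14, the membrane protease that activates Mmp2, fell by 0.69 and by 0.63.

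Timp2, an inhibitor of these proteases that also takes part in Mmp2 activation (ENSMUSG00000017466, chr11:118301069-118355740), was at 1117, 699, 955 and 1014 CPM in Veh NPD and at 650.0, 531, 629 and 591 CPM in Cort NPD. In HPD mice it was at 1094, 1028, 1057 and 885 CPM in Veh and at 595, 600.1, 557 and 532 CPM in Cort. All Cort libraries were below all Veh libraries, with decreases of 0.66 (edgeR adjusted p = 0.0013) and 0.83 (edgeR adjusted p = 1.3e-04). Timp3, a matrix-bound inhibitor, was at 381, 422, 475 and 427 CPM in Veh NPD and at 361, 358, 283 and 349 CPM in Cort NPD. On the HPD Timp3 was at 563, 631, 417 and 341 CPM in Veh and at 266, 316, 239.8 and 261 CPM in Cort. Its groups were apart on both diets, but only the HPD difference was called, at -0.85 (edgeR adjusted p = 6.3e-04) against -0.34 (edgeR adjusted p = 0.2). Timp3 shares 1733 exonic bases with Syn3 on the opposite strand. Mmp3 and Timp1 had few counts and were not called, and neither was the growth factor Tgfb1, at -0.45 and 0.05.

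Marker genes of other cells moved with these results. The 10 fibroblast and adipocyte progenitor markers summed to 470.5 to 555 CPM in the Veh eWAT libraries and to 308 to 377 CPM in the Cort libraries, and 5 of them fell and 1 rose on the NPD, with 6 falling on the HPD. The 6 smooth muscle and pericyte markers summed to 419.6 to 659 CPM in Veh, apart from the 217 CPM of Veh HPD replicate 4, and to 188 to 324 CPM in Cort. The adipocyte marker sums overlapped between all groups, with 3 of the 6 genes up and 1 down on the NPD and 1 up and 1 down on the HPD. None of the genes of these lists was at 0 in any eWAT group. The 5 red blood cell markers all rose on the HPD, to 12684 to 25856 CPM in sum, and none was called on the NPD. Of 6 macrophage markers 3 fell on the NPD, and 2 fell and 1 rose on the HPD. Of 7 endothelial markers 2 fell on the NPD, and of 7 mesothelial markers 1 fell on the HPD. The part of these cells in the matrix result was not tested.

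The wider pathway was followed in lists of genes outside the 47, whose counts stand against 4.05% of all genes rising and 3.93% falling on the NPD and 3.46% and 2.63% on the HPD. Among 21 genes of transforming growth factor beta signalling, 1 rose and 4 fell on the NPD and 1 rose and 3 fell on the HPD. Tgfb3, a ligand, rose by 0.79 and by 1.23, and the latent binding proteins that hold the ligand in the matrix fell, with Ltbp4 at -1.38 and -1.19 (edgeR adjusted p = 2.7e-07 and 4.1e-06), Ltbp1 at -1.03 and -0.90, and Ltbp3 at -0.81 and -0.73. Of 39 other collagens and matrix proteins 10 fell and 1 rose on the NPD and 5 fell on the HPD, among them Ecm2 (-1.63 and -1.36) and the calcium-binding matrix gene Smoc2 (-1.06 and -0.66). Of 23 other matrix enzymes and inhibitors 4 fell and 2 rose on the NPD and 2 fell and 1 rose on the HPD. Timp4, the inhibitor typical of fat, rose by 1.49 and by 1.22, opposite to Timp2, and Mmp9, a gelatinase of myeloid cells, fell by 2.20 on the NPD. Of 13 collagen and matrix receptors 3 fell and 2 rose on the NPD and 1 fell and 1 rose on the HPD. The collagen receptor Ddr2 fell by 0.47 and by 0.72.

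The next question was whether the diet altered the matrix genes or their response in eWAT. In Veh mice no matrix gene was called between HPD and NPD, where 0.0593% of all genes were. By edgeR's quasi-likelihood test 12 of the 47 had an unadjusted p under 0.05, against 1219 of all 15187 genes, and DESeq2 called 2. The median was -0.34 with 38 genes negative, and it was -0.13 without Veh HPD replicate 4. In Cort mice no matrix gene was called by edgeR, where 0.487% of all genes were, DESeq2 called 0 and the median was -0.10. By edgeR 3 of the 47 had an unadjusted p under 0.05, against 1490 of all 15187 genes. The diet by Cort interaction called 0 matrix genes by edgeR and by DESeq2, where 0.0132% of all genes were called. Its unadjusted p by edgeR was under 0.05 for 3 of the 47, against 784 of all 15187 genes. For Col14a1 the interaction was 0.79 ± 0.48 (SE), and for Fn1 0.72 ± 0.41. The 3 genes with an unadjusted p under 0.05 were Timp3 (-0.52 ± 0.21), Lum (0.69 ± 0.31) and Mmp2 (0.80 ± 0.38), and all had an adjusted p of at least 0.9. Of the 47 interaction values 39 were positive, with a median of 0.25 against 0.02 for all genes, and the median was 0.11 without both libraries that stood apart. Of the pathway lists 1 gene was called between the diets in eWAT, Mmp9, which under Cort was higher on the HPD by 1.70 (edgeR adjusted p = 0.0032).

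The Cort responses on the diets, which share no library, had the same sign in 41 of 47 matrix genes in eWAT (87.2%, against 67.8% of all genes). Of these genes 19 were called on both diets, each in the same direction, 5 only on the NPD (Col1a1, Col3a1, Col6a2, Fn1 and Bgn) and 3 only on the HPD (Col4a1, P4ha2 and Timp3). A call on 1 diet alone is not a tested difference, since the interaction called none of them.

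**Figure D3:**
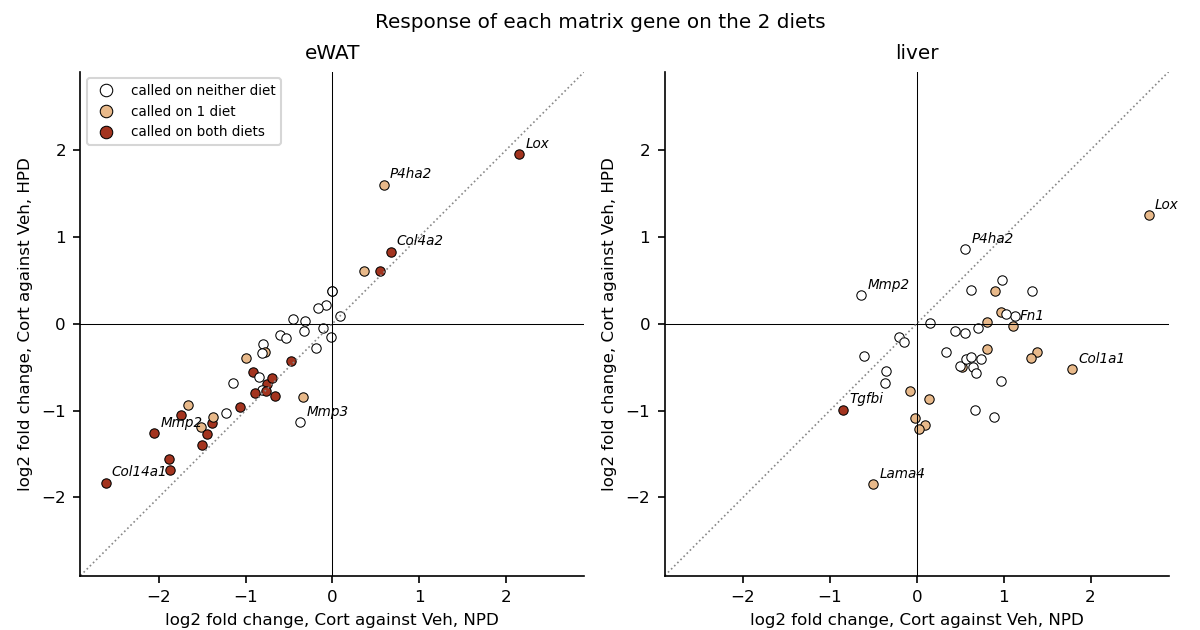
Log2 fold change of each matrix gene, Cort against Veh, on the NPD (horizontal) and the HPD (vertical), in eWAT and liver; the dotted line marks equal values and the colours tell on how many diets a gene was called. In eWAT the points follow the line, and in liver 22 of 43 lie in the lower right, positive on the NPD and negative on the HPD.

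In liver the matrix genes took a smaller share of the counts, 0.0645% to 0.188% against 1.02% to 2.04% in eWAT. On the NPD 10 of 43 rose under Cort and only Tgfbi fell, where 6.84% of all genes tested rose and 5.79% fell, with a median log2 fold change of 0.62 for the matrix genes. On the HPD no matrix gene rose and 7 fell, where 4.75% of all genes rose and 5.14% fell, and the median was -0.37. With library totals in place of scaling factors the medians on the HPD were -0.24 for all genes and -0.60 for the matrix genes. A change of scaling moves all genes alike, so the unchanged distance of -0.36 between them is no test of the scaling. With the left-out library included, 4 rose and 1 fell on the NPD and 9 fell on the HPD. Leaving out Cort NPD replicate 4 cut the 11 NPD calls to 3, leaving out Veh NPD replicate 4 to 6, and leaving out Veh NPD replicate 2 or Cort NPD replicate 2 or 3 to 7. The 7 HPD calls became 4 when Veh HPD replicate 1 was left out.

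Fn1, made by hepatocytes for plasma as well as by matrix cells, was at 230.5, 209.6, 302 and 216 CPM in Veh NPD and at 389, 374, 637 and 666 CPM in Cort NPD. Its HPD levels were 367, 253 and 298 CPM in Veh and 236, 328, 339 and 299 CPM in Cort. Its NPD groups were apart and its HPD groups overlapped. Fn1 rose by 1.11 ± 0.20 (SE, edgeR adjusted p = 6.1e-04) on the NPD and was at -0.03 ± 0.21 (edgeR adjusted p = 0.96) on the HPD, and the interaction was -1.13 ± 0.29 (edgeR adjusted p = 0.13).

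Plod1, a lysyl hydroxylase of procollagen (ENSMUSG00000019055, chr4:147909753-147936767), was at 12.6, 13.8, 17.7 and 17.2 CPM in Veh NPD and at 30.9, 28.6, 29.9 and 25.3 CPM in Cort NPD. The HPD libraries held it at 16.3, 14.4 and 18.4 CPM in Veh and at 21.9, 20.1, 20.7 and 22.0 CPM in Cort. All Cort libraries lay above all Veh libraries. Plod1 rose by 0.90 ± 0.15 (SE, edgeR adjusted p = 2.7e-04) on the NPD and was at 0.37 ± 0.16 (edgeR adjusted p = 0.16) on the HPD. Lox rose in liver too, from 0.711, 0.319, 0.260 and 0 CPM in Veh NPD to 0.693, 0.863, 3.48 and 3.40 CPM in Cort NPD, few counts and overlapping groups. Its fitted fold change was 2.67 ± 0.65 (SE, edgeR adjusted p = 0.0083).

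The collagens called on the NPD varied among the Cort livers. Col1a1 was at 4.90, 4.03, 5.19 and 3.30 CPM in Veh NPD and at 6.31, 22.6, 9.01 and 22.6 CPM in Cort NPD, so the groups were apart but replicates 2 and 4 of Cort NPD were well above the others. On the HPD it was at 15.7, 5.79 and 6.28 CPM in Veh and at 8.56, 8.43, 5.20 and 3.86 CPM in Cort. It rose on the NPD by 1.79 ± 0.46 (SE, edgeR adjusted p = 0.02), with -0.52 ± 0.47 on the HPD. Col6a3 was at 6.32, 2.55, 3.03 and 5.16 CPM in Veh NPD and at 5.46, 9.06, 10.6 and 19.4 CPM in Cort NPD, groups that overlapped. It rose by 1.38 (edgeR adjusted p = 0.012). Without Cort NPD replicate 4 the value was 0.95 (edgeR adjusted p = 0.058), and with all liver libraries the call was also lost (edgeR adjusted p = 0.053). Timp3 (0.81), Lamc1 (0.81), Col6a1 (0.97), Eln (1.32) and Bgn (0.52) made up the others that rose.

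Tgfbi was the only matrix gene called on both diets in liver. It was at 11.1, 9.87, 8.31 and 6.59 CPM in Veh NPD and at 3.92, 5.69, 3.71 and 6.5 CPM in Cort NPD. In HPD mice it was at 11, 8.47 and 9.46 CPM in Veh and at 3.65, 4.59, 5.43 and 5.79 CPM in Cort. No Cort liver reached a Veh liver of its diet, and Tgfbi fell by 0.85 (edgeR adjusted p = 0.015) and by 0.99 (edgeR adjusted p = 0.0099). In both tissues and on both diets, then, Cort lowered Tgfbi.

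**Figure D4:**
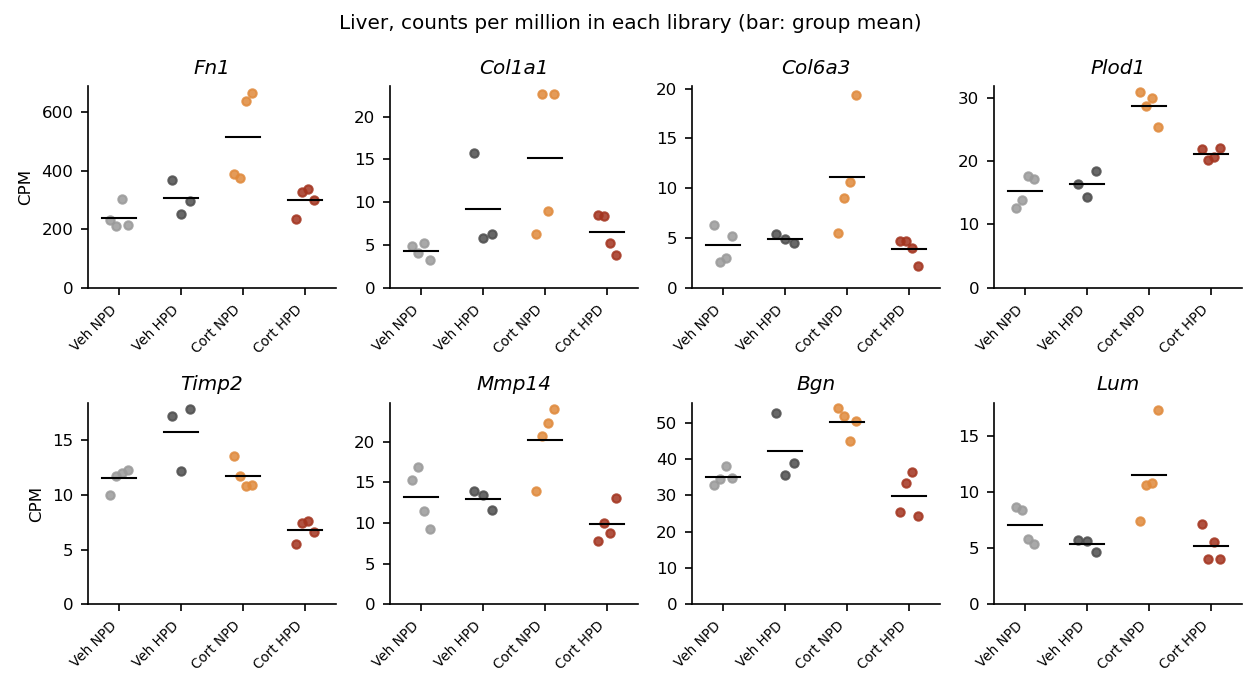
CPM in each liver library of 8 matrix genes, with a bar at the group mean; Veh HPD has 3 libraries and the other groups 4. Fn1 and Plod1 are higher in Cort NPD than in Veh NPD, Timp2 is lowest in Cort HPD, at 5.51 to 7.57 CPM, and Mmp14, Bgn and Lum are lower in Cort HPD than in Cort NPD with no overlap.

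On the HPD the matrix gene with the lowest p in liver was Timp2. It was at 17.2, 12.2 and 17.8 CPM in Veh HPD and at 5.51, 7.44, 7.57 and 6.61 CPM in Cort HPD. In the NPD groups it was at 9.96, 11.7, 12.0 and 12.3 CPM in Veh and at 13.5, 11.7, 10.8 and 10.9 CPM in Cort. The Cort HPD livers lay below all other livers, and the NPD groups overlapped. Timp2 fell by 1.21 ± 0.18 (SE, edgeR adjusted p = 1.6e-04) on the HPD and was at 0.03 ± 0.17 on the NPD. Its interaction of -1.24 ± 0.25 was the only one called among the matrix genes (edgeR adjusted p = 0.05 as rounded, and below 0.05 before rounding) where 0.113% of all genes were called, and 18 of 22 alternatives lost it.

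Col14a1 was at 21.4, 13.0 and 21.9 CPM in Veh HPD and at 7.12, 8.9, 11.2 and 8.17 CPM in Cort HPD. In the NPD groups it was at 14.4, 15.7, 14.7 and 19.9 CPM in Veh and at 11.9, 11.5, 18.2 and 22.2 CPM in Cort. Its HPD groups did not overlap, and it fell by 1.09 there (edgeR adjusted p = 0.0048), with -0.02 on the NPD. Lamb1 (-1.17), Lama4 (-1.85), Sparc (-0.87) and the collagen chaperone Serpinh1 (-0.78) were the other genes that fell on the HPD, and Lama4 was at most at 1.74 CPM in the livers used.

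The 22 genes called in no liver comparison ranged from -0.64 to 1.33 on the NPD and from -1.08 to 0.86 on the HPD, and they included Col1a2, Col3a1 and Mmp2, which all fell in eWAT.

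The Cort responses on the diets had the same sign in 20 of 43 matrix genes in liver (46.5%, against 64.2% of all genes). In the interaction 39 of 43 were negative with a median of -0.98. By edgeR 21 had an unadjusted p under 0.05, against 1496 of all 12391 genes. Besides Timp2 no single gene passed the adjusted threshold by edgeR, and DESeq2 called 4.

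Between the diets no matrix gene was called in Veh livers by edgeR's quasi-likelihood test or by DESeq2, where edgeR called 0.169% of all genes. By edgeR 4 of the 43 had an unadjusted p under 0.05, against 1165 of all 12391 genes. In Cort livers 11 of 43 were lower on the HPD and none was higher, where 2.80% of all genes were lower and 3.08% higher, and 42 of 43 were negative with a median of -0.68. The count was 4 when Cort NPD replicate 4 was left out, 6 for Cort NPD replicate 3 or Cort HPD replicate 1, 7 for Cort HPD replicate 4 and 17 for Cort NPD replicate 1, and 6 with the left-out Veh HPD library included.

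Mmp14 (ENSMUSG00000000957, chr14:54431612-54445364) was at 13.9, 20.7, 22.3 and 24.0 CPM in Cort NPD livers and at 7.80, 9.94, 8.80 and 13.1 CPM in Cort HPD livers. Bgn was at 54.1, 51.8, 44.9 and 50.5 CPM in Cort NPD and at 25.5, 33.5, 36.4 and 24.3 CPM in Cort HPD. Neither gene's groups overlapped, with decreases on the HPD of 1.03 (SE 0.21, edgeR adjusted p = 0.0048) and 0.75 (SE 0.16, edgeR adjusted p = 0.006). In Veh livers Mmp14 was at 15.3, 16.9, 11.5 and 9.22 CPM on the NPD and 13.9, 13.4 and 11.6 CPM on the HPD, and Bgn at 32.8, 34.4, 38.1 and 34.7 CPM and 52.6, 35.5 and 39.0 CPM.

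Lum was at 7.39, 10.6, 10.8 and 17.3 CPM in Cort NPD and at 7.12, 4.01, 5.59 and 4.01 CPM in Cort HPD livers. Lamb1, a laminin beta chain, was at 3.92, 5.52, 7.34 and 9.42 CPM in Cort NPD and at 3.22, 3.49, 3.06 and 1.26 CPM in Cort HPD livers. Both sets of groups were apart, though by under 1 CPM at their edges. Lum was lower on the HPD by 1.16 (edgeR adjusted p = 0.0081) and Lamb1 by 1.25 (edgeR adjusted p = 0.01). Col6a3 (-1.51), Timp2 (-0.79), Fn1 (-0.78), Col5a1 (-1.39), Col14a1 (-0.85), Timp3 (-0.76) and Col18a1 (-0.55) were the others.

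Cell markers of liver moved with the groups as well. The 6 hepatocyte markers summed to 125057 to 226513 CPM in Cort HPD, 84540.3 to 107522 CPM in Cort NPD and 53902 to 91409 CPM in Veh livers, but of the single genes 1 rose and 2 fell on the NPD and 2 rose on the HPD, with medians of 0.06 and 0.02. The 7 endothelial markers summed to 40.9 to 56.2 CPM in Cort HPD and to 58.6 to 111 CPM in the other groups, and 3 of them fell under Cort on the HPD. The 6 stellate cell markers summed to 28.1 to 38.7 CPM in Cort HPD, 29.7 to 83.8 CPM in Cort NPD and 39.6 to 58.8 CPM in Veh livers, with none of these genes at 0 in any liver group. Of the macrophage markers 2 fell on the NPD and 1 on the HPD, and of 5 cholangiocyte markers 1 rose on each diet. The 6 smooth muscle and pericyte markers summed to 35.3 to 54.7 CPM in Veh and to 57.5 to 76.5 CPM in Cort livers, with 1 of the 5 genes tested, Rgs5, called higher under Cort on each diet. Red blood cell markers summed to 5271 to 7622 CPM in Cort HPD and to at most 3544 CPM in the other livers used, and under Cort 2 of these genes rose and 1 fell on the HPD and none was called on the NPD. The 10 fibroblast and adipocyte progenitor markers summed to 126 to 234 CPM in Cort HPD, 132 to 151 CPM in Cort NPD and 106 to 154 CPM in Veh livers. Of the 7 tested, 1 rose under Cort on the NPD and 0 were called on the HPD. Between the diets under Cort 1 was higher and 1 lower on the HPD. None of the 5 mesothelial genes tested was called. Their part in the matrix result was not tested.

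**Figure D5:**
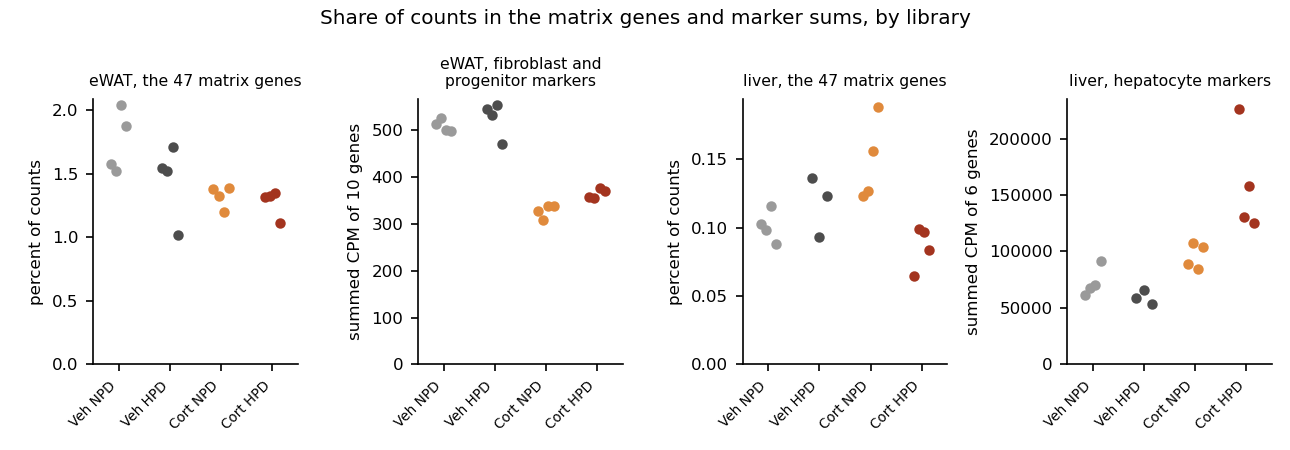
For each library, the percent of counts in the 47 matrix genes and a summed marker level (CPM), in eWAT (left pair) and liver (right pair); each point is 1 library. In eWAT the Cort libraries hold 1.11% to 1.39% of counts in matrix genes, and the progenitor markers separate Veh from Cort; in liver the Cort HPD share is 0.0645% to 0.0990% while its hepatocyte marker sum is the highest.

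The same pathway lists were read in liver, against 6.84% of all genes rising and 5.79% falling on the NPD and 4.75% and 5.14% on the HPD. Among the genes of transforming growth factor beta signalling the receptor Tgfbr2 rose on the NPD by 1.38 (edgeR adjusted p = 6.8e-04) and on the HPD by 0.91, and Ltbp4 fell by 1.78 on the HPD. Of 26 other matrix proteins 1 rose on the NPD, and 2 rose and 2 fell on the HPD. Of 16 other matrix enzymes 4 rose on the NPD, among them the procollagen C-proteinase Bmp1 (0.84) and the protease Mmp19 (1.0), and on the HPD Mmp19 rose (0.93) and the aggrecanase Adamts5 fell (-1.61). Of 11 receptors 1 rose and 1 fell on the NPD and 1 fell on the HPD. That gene, the syndecan Sdc4, fell on both diets, by 0.50 and by 0.97, and rose in eWAT on the NPD by 1.03. Between the diets Col27a1, a fibrillar collagen outside the 47, was lower on the HPD in Veh livers by 1.79 (edgeR adjusted p = 0.0015) and in Cort livers by 0.83 (edgeR adjusted p = 0.02), and it rose under Cort on the HPD by 1.49. In Cort livers Prelp (-1.0), Bmp1 (-0.71), Adamts2 (-1.16) and Ddr2 (-1.25) were also lower on the HPD, and no other pathway gene was called between the diets in liver.

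A fit of both tissues compared the Cort effect, averaged over the diets, between eWAT and liver. The sources used here do not tell whether both tissues came from the same mice, and the fit took all libraries as separate. Of the 47 matrix genes 18 had a lower Cort effect in eWAT than in liver and 2 a higher one, where 3.88% of the 16482 genes tested were called in each direction, and the median difference was -0.78. The collagens of microfibrils and fibril surfaces were all 4 lower, 3 of 6 fibrillar collagens were lower, and the higher ones were the basement membrane genes Col18a1 (0.57) and Lama4 (1.08). Col6a3 differed by -2.25 ± 0.40 (SE, edgeR adjusted p = 4.8e-04), Col1a1 by -1.99 ± 0.42 (edgeR adjusted p = 0.0034) and Fn1 by -1.85 ± 0.26 (edgeR adjusted p = 1.3e-05). On the NPD 27 of the 43 genes tested in both tissues were negative in eWAT and positive in liver and 0 the reverse, whereas on the HPD 8 were, with 7 the reverse and 24 negative in both tissues. On the NPD Bgn, Col1a1, Col6a3 and Fn1 fell in eWAT and rose in liver. Of 23 alternatives, 8, 5, 2 and 0 lost these liver calls, in the order named. With all liver libraries 9 of the 47 genes were called.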

How the data were processed

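RNA of eWAT and liver was measured in 32 QuantSeq 3′ libraries. The table the authors deposited holds raw counts for each Ensembl gene and library, and 0 of its columns were left unused. The submitters' processing notes name R 4.0.3, limma and GRCm38 (mm10). The aligner, the counting program and the use of strand are not given in the sources used here. Of the 47 genes, 15 share exonic bases with another gene of the GENCODE annotation.

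Fits were made in R 4.3.3 by the quasi-likelihood method of edgeR 4.0.16 (filterByExpr with minimum count 10 and minimum total 15, TMM factors, robust fit, 1 mean per group), each tissue on its own and both together for the tissue difference. Alternatives were RLE factors, library totals, DESeq2 1.42.0, limma 3.58.1 voom, no filter, the 2 compared groups alone, a replicate block, all liver libraries and each library left out. The steps were tested on simulated counts with the same spread for all genes of a tissue, whereas real genes differ in spread. The rates that follow therefore do not give the chance of a call for a single matrix gene. Timp2 and Dcn, for example, were called in eWAT on the HPD at -0.83 and -0.43. Of log2 changes of 1, 15% and 2% were called in eWAT (NPD and HPD) and 54% and 43% in liver. Of log2 changes of 2, 88% and 80% were called in eWAT and 95% and 98% in liver. A gene not called is thus not shown to be unchanged. Replicates of a tissue are separate mice.

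The gene list, role groups, pathway and marker lists were chosen with earlier results of these data known. Values in every library are given for up to 3 called genes per role group in eWAT with the smallest p, for called genes opposite to most of their group, and in liver for up to 6 called genes over the Cort comparisons and 6 over the diet comparisons. From each pathway list up to 3 called genes are named. For the signalling list in liver, 1 result is not reported here. Further genes named with values, such as Col1a1 and Col6a3 in liver under Cort, Col4a1 and Col18a1, were chosen after their values were seen.

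Depth limits genes of few counts, such as Lox and Lama4 in liver. Replicates differed by more than counting noise, with a chi-squared per gene that averaged 14.1 to 189 in the 48 pairs.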

Additional observations from a re-analysis of the deposited data

Results flagged for a closer look

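In 4 cases 1 library lay far from the other 3 of its group, of 109 groups examined, where 5.45 would by chance (Dixon's 95% criterion flags about 1 group in 20). Col1a2 was at 363 CPM in eWAT Veh HPD replicate 4, with the others at 775 to 803. Col3a1 was at 454 CPM in eWAT Cort HPD replicate 2, with the others at 313 to 332. P4ha2 was at 109 CPM in eWAT Cort HPD replicate 4, the library with epididymis transcripts, with the others at 21.3 to 36.2. Timp3 was at 283 CPM in eWAT Cort NPD replicate 3, with the others at 349 to 361.

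The Cort effect differed between the diets by a test of the difference itself for Timp2 in liver, by -1.24 on the log2 scale. It differed between the tissues, as eWAT minus liver, for 20 genes. The collagens among them were Col1a1 (-1.99), Col1a2 (-1.43), Col5a2 (-1.35), Col6a1 (-1.07), Col6a2 (-1.27), Col6a3 (-2.25), Col14a1 (-1.67), Col15a1 (-1.17) and Col18a1 (0.57). The glycoprotein, proteoglycan, laminin and elastic fibre genes were Fn1 (-1.85), Lum (-1.73), Eln (-1.60), Postn (-1.30), Dcn (-0.53) and Lama4 (1.08). The enzymes and inhibitors were Pcolce (-1.01), Loxl2 (-1.63), Mmp2 (-1.50), Mmp14 (-0.78) and Timp3 (-0.86).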

How the results depend on the processing

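No call reversed among 2551 values of the 96 called results of single genes under the alternatives. Of these values 2224 kept direction and call, 327 lost the call and 0 changed sign, and 39 results lost it under none. Many of the fits with a library left out dropped one outside the compared groups. With 1 mean per group such a fit hardly moves the fold change, so it is a weak check of direction. The call was lost under at least as many alternatives as kept it for 8: Dcn, Fbln1, Tgfbi, Pcolce and P4ha2 in eWAT on the HPD, and in liver Col6a1 on the NPD, Col18a1 between diets under Cort and the Timp2 interaction. The cause of the changes listed here was not tested. In eWAT the genes called, 24 on the NPD and 22 on the HPD, ranged from 19 to 29 and from 10 to 25 with 1 library left out. The NPD count was 30 without both HPD libraries that stood apart. Without Veh NPD replicate 3 the NPD count was 19. The lowest HPD counts were 10 and 13 without Veh HPD replicate 1 or 2, and 14 and 13 without Cort HPD replicate 1 or 3. The diet comparison under Veh gave 2 with DESeq2, and 0 to 1 with a library left out (1 without Veh HPD replicate 3). In liver the 11 called on the NPD became 5 with all liver libraries and 3 to 16 with 1 left out (3 for Cort NPD replicate 4, 6 for Veh NPD replicate 4). The 7 on the HPD became 4 to 8 (4 without Veh HPD replicate 1). The 11 between diets under Cort became 6 with all liver libraries and 4 to 17 with 1 left out (6 without Cort HPD replicate 1, 7 without Cort HPD replicate 4). The liver interaction, 1 gene, gave 0 with RLE factors, voom or all liver libraries, 4 with DESeq2 or no filter, and 0 to 1 with a library left out. The tissue difference, 20 genes, gave 10 with voom and 9 with all liver libraries.

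To look for pairing by replicate number, each library's log2 CPM was taken as a deviation from its group mean in every gene tested. These deviations were correlated between libraries of different groups of a tissue. The correlations were over 0.1 for 1 of 24 same-numbered pairs in eWAT and 6 of 21 in liver. For pairs with different numbers they were over 0.1 in 5 of 72 and 11 of 63. The medians of the same-numbered pairs were 0.007 and -0.025. With the replicate block, the replicate number as a term, 24 and 17 genes were called in eWAT, 9 and 7 in liver under Cort, 10 between diets under Cort and 0 for the interaction.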
